A study of Homo sapiens with 10 samples.

Results

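Gene deserts are long stretches of a chromosome between neighbouring protein-coding genes, and here they were the autosomal intervals of at least 1 Mb between the ends of such genes in the GENCODE annotation of GRCh38. Each interval was trimmed by 50 kb at both sides, and intervals with 5% or more unsequenced bases were left out. The rule gave 273 deserts on all 22 autosomes, with a trimmed length of 495 Mb. They made up 17.9% of the sequenced autosomal bases and held 15.6% of the autosomal nucleosome positions, 1939586 of 12465711.

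The cells were undifferentiated human induced pluripotent stem cells (hiPSCs), line PB010.5, with a FUCCI reporter of the cell cycle. Their chromatin was digested for 5 min with MNase, a nuclease that cuts the DNA between nucleosomes, at 5 concentrations with 1 library each, 0.5 U and 1 U at the low end, 3 U in the middle, and 6 U and 10 U at the high end. Each library was sequenced with 150-bp and, at low depth, with 50-bp paired-end reads, which makes 10 samples. The data were 1 list of positions called on pooled libraries, so no value exists per concentration or per replicate, no p-value is given, and the spread of each value is its SD over autosomes.

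A nucleosome is DNA wrapped around a histone core, and regular arrays of nucleosomes form where a boundary such as a bound factor fixes their order. Gene deserts are known for low GC content, for late replication and heterochromatin in many cell types, and for holding distant enhancers of developmental regulators. Some of the longest intervals without protein-coding genes span centromeres, whose DNA is made of tandem alpha-satellite repeats bound in part by the protein CENP-B.

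The sequences below are examples from the deserts, chosen by the rules given beside them. The first pair are matches to the CTCF motif in deserts, from those with the highest summed score of the nearest positions on both sides, with the motif in capitals. CTCF is a zinc finger protein that binds DNA and is known to have regular nucleosome arrays beside its sites.

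SLC8A1-PKDCC: caataacacCCACCAGAGGGCagcaaactc
NEDD1-TMPO: taaccttagCCAGTAGAGGGCgctggaggg

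The site between SLC8A1 and PKDCC lies on the plus strand at chr2:41853843-41853872. Its neighbouring positions had midpoints 176 bp to the left, with a score of 62.9, and 164 bp to the right, with a score of 24.7. The site between NEDD1 and TMPO lies on the plus strand at chr12:97283488-97283517, with midpoints 151 bp and 159 bp away and scores of 54.3 and 32.1. These sites were chosen for such scores.

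The next pair are the 30 bases around the midpoint of the highest-scoring position in the longest and the next longest desert, with the central 10 bases in capitals. Both of these deserts span a centromere, and these positions lie in the parts of them that were not empty.

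ZNF716-ZNF722: cccagcccacCCCGAGCCTCccgaggcccc
ANKRD30B-ROCK1: aaaataaaatGCAAGGTTTGaaaactgatt

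They lie on the plus strand at chr7:63580247-63580276, with a score of 39.5, and at chr18:15198637-15198666, with a score of 29.6. The last pair shows the leftmost plus-strand match to the CENP-B box, with its 15 bases in capitals, in the pair of deserts that held the most such boxes.

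ANKRD30B-ROCK1 box: taactatTTCGTTGGAAACGGGaatatct
KCNJ18-WSB1 box: tgaggatTTCGTTGGAAACGGGataactg

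The boxes lie at chr18:15462044-15462072 and chr17:22745493-22745521, and each lies inside the longest stretch of its desert that held no position.

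The deserts differed most by whether they held satellite DNA. In 10 deserts, each on a different autosome, at least 1 tile of about 100 kb had over 35% of its bases equal to the base that lay 1 alpha-satellite unit further on. Over all such tiles the median of this share was 48.3%, against 27.7% in the tiles of the other 263 deserts and 26.7% in genic windows. The CENP-B box, searched as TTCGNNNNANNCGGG on both strands, occurred 64921 times in these 10 deserts and 44 times in the other 263. It was found in 0.957% of the tiles of the other deserts and in 7.09% of all desert tiles. Of the 100-kb windows that overlap protein-coding genes, which were not screened for satellite, 3.44% held it.

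Positions were scarce in the satellite. The satellite tiles held 10630 positions in 32.7 Mb, or 325 per Mb, and 279 of the 333 tiles held none. The 10 deserts held from 4.34 to 1958 positions per Mb, and all 263 others held at least 2228 per Mb, so the groups did not overlap. Relative to genic windows of the same GC content, the density of the 10 was between 0.000948 and 0.411. Outside the satellite tiles, the other 98 tiles of these deserts held 2696 positions per Mb, 0.570 of the genic level. In the 63 of these tiles without an empty stretch of over 10 kb the density was 3791 per Mb, 0.796 of the genic level. The authors removed blacklisted regions, and reads that fit several repeat copies cannot be placed uniquely, so the list does not tell an absent nucleosome from DNA without placed reads.

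The 4 longest intervals, each spanning a centromere, were all of this kind. The interval from ZNF716 to ZNF722, both genes of zinc finger proteins, measured 6.53 Mb, and its trimmed part at chr7:57523560-63948848 held 746 positions per Mb, with 33 of 64 tiles empty. The interval from ANKRD30B to ROCK1 measured 6.09 Mb, and chr18:14904668-20894611 held 836 positions in all, 142 per Mb, with a single empty stretch of 5527460 bp. The interval from KCNJ18, a potassium channel gene, to WSB1 measured 5.59 Mb, and chr17:21754613-27244075 held 650 per Mb. The interval from ZNF254 to UQCRFS1, which encodes a subunit of respiratory complex III, measured 5.08 Mb, and chr19:24179969-29155319 held 1808 per Mb, with tiles from 0 to 5377 per Mb. Each of these deserts thus held empty tiles beside tiles with densities seen in other deserts.

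The 3 deserts with the lowest density were of this kind too. The lowest, between ENSG00000283886 and FOXD4L6 at chr9:39924563-41076434, held 5 positions in 1.15 Mb, and 10 of its 11 tiles were empty. It was followed by the desert between ANKRD30B and ROCK1 and by that between TPTE and POTED at chr21:10656141-13559776, which held 629 positions, 224 per Mb. The lowest held 57 CENP-B boxes, against 14577 between ANKRD30B and ROCK1 and 4254 between TPTE and POTED. At least 1 tile of the lowest passed the satellite cut, and how much of it is satellite is not given here.

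**Figure D1:**
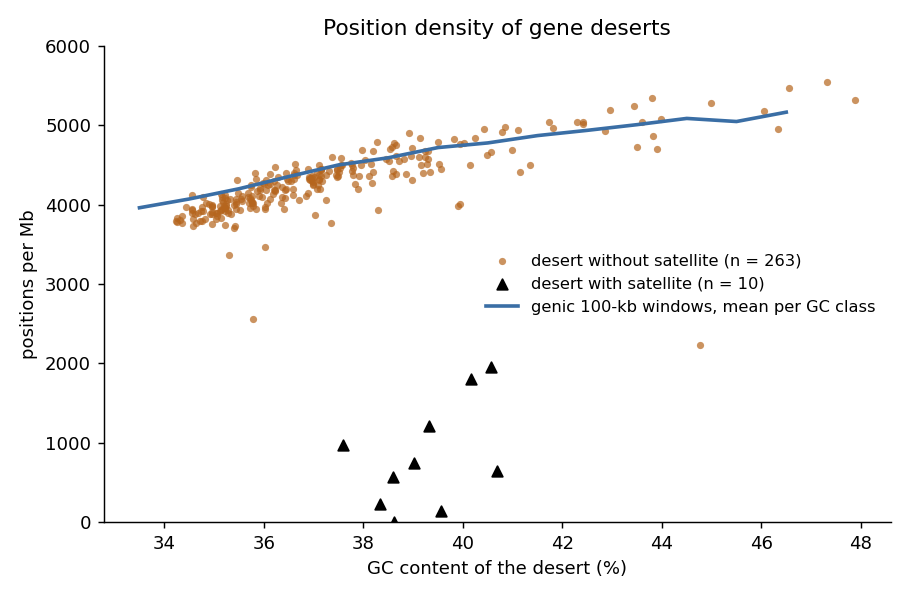
Each point is 1 gene desert, with its GC content in percent on the x axis and its nucleosome positions per Mb on the y axis. The line is the mean of genic 100-kb windows in classes of 1 percentage point of GC. The 10 deserts with satellite DNA (triangles) lie at 1958 per Mb or below, and the other 263 follow the GC content from 2228 to 5544 per Mb.

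Density rose with GC content. Across the 263 deserts without satellite, Spearman's rho between GC content and density was 0.860 and Pearson's r was 0.745, and for GC content and mean score they were 0.865 and 0.886, over deserts that share the library and the base composition of their neighbours. The deserts had a median GC content of 36.6% (range 34.2% to 47.9%), and the genic windows 42.3% on average. The comparison therefore cut the deserts into 4822 tiles of about 100 kb, sorted the tiles and the 17449 genic windows into GC classes of 0.5 percentage points, and gave the genic windows the weights of the tiles. After this, the mean GC content was 37.1% in both over all deserts, and 36.9% in both without the satellite deserts.

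Over all 273 deserts the density was 3929 positions per Mb, against 4390 in GC-matched genic windows, a ratio of 0.895. The SD of the ratio over the 21 autosomes with at least 20 tiles matched within the autosome was 0.163, so this difference was within the spread. Chromosome 19 was not among them, although its desert between ZNF254 and UQCRFS1 had 49 tiles and a ratio of 0.381. Without the 10 satellite deserts the density was 4218 per Mb (SD 258) against 4364 (SD 181), a ratio of 0.967. The autosomes then had a mean ratio of 0.975 with an SD of 0.0246, and the deserts were lower on 18 of 21. They were higher on chromosome 22, where the ratio was 1.03, and by smaller amounts on chromosomes 11 and 15, and the lowest ratio, 0.925, was on chromosome 7. The mean shortfall was thus about as large as 1 SD between autosomes.

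The genic mean is lowered by a tail of sparse windows. Of the genic windows, 2.09% held less than 0.5 of the median of their GC class, against 0.387% of the desert tiles without satellite. The genic windows were not screened for satellite, here or in the ratio without satellite deserts, so sparse windows were left out on the desert side only. Measured against the median genic window of its GC class, the median desert tile had a ratio of 0.959 (quartiles 0.923 and 0.992), with an SD of 0.0135 over autosomes, and lay below 1 on 21 of 21. Of these tiles, 79.6% were below the median genic window, where the background share of the genic windows themselves was 49.1%. Against the mean, 69.5% of the tiles were below and 28.3% of the genic windows. The lower density was therefore seen in most tiles.

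The distance to genes went along with the density. Tiles centred 100 to 200 kb from the nearest end of the interval had a ratio to the GC-matched mean of 0.991 (SD 0.0317 over 13 autosomes), and tiles at 200 to 400 kb had 0.979 (SD 0.0249 over 17 autosomes). At 400 to 800 kb the ratio was 0.966 (SD 0.0168), below 1 on 17 of 17 autosomes. At 800 kb or more it was 0.942 (SD 0.0278), below 1 on 12 of 13. Neighbouring classes differed by less than the larger of their SDs over autosomes, and the nearest and the farthest class by more. Against the median genic window the same 4 classes had median ratios of 0.981 (SD 0.0141), 0.971 (SD 0.00893), 0.957 (SD 0.0109) and 0.941 (SD 0.0405). On that scale the order was the same, but the nearest and the farthest class differed by slightly less than the larger SD. The GC content of the classes fell as well, from 38.6% in the nearest to 35.4% in the farthest, with matched genic windows in each.

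The same order held inside single deserts. In 128 deserts that were long enough, the tiles at least 800 kb from a gene were compared with the tiles under 400 kb of the same desert, each relative to genic windows of its GC class. The inner tiles had the lower ratio in 108 of the 128, with a median of 0.951 inside and 0.985 outside and a median difference of -0.0316 (quartiles -0.0534 and -0.0091). Across the 263 deserts, Spearman's rho between the length of the interval and the ratio was -0.326 and Pearson's r was -0.153. The ratio also went with the GC content that remained between deserts (rho 0.438, r 0.193), and longer intervals had the lower GC content (rho -0.455, r -0.366), so length and GC content cannot be told apart in these coefficients. Intervals of 1 to 2 Mb (188 deserts) had a ratio of 0.974 (SD 0.0278) and intervals of 2 Mb or more (75 deserts) 0.958 (SD 0.0260), which differ by less than the spread. Just above the length limit, 31 intervals of 1000 to 1100 kb had a ratio of 0.975, and just below it, 41 intervals of 900 to 1000 kb had 0.984.

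The genes that flank a desert sorted the densities further. Genes on a list of developmental transcription factors, which steer the programmes of organs and lineages, flanked 31 deserts. Genes of proteins of cell adhesion and the synaptic surface, which join neurons and other cells, flanked 73. Both lists were taken by symbol stem. The first thus also holds genes whose proteins do not bind DNA themselves, such as ID2, ID4, LMO3 and LMO4, and LMO7, a protein of cell junctions. Beside the transcription factor genes the ratio was 0.998 (SD 0.0149, below 1 on 4 of 7 autosomes), and 13 of the 31 deserts were below 1. Beside the adhesion genes it was 0.955 (SD 0.0219, below 1 on 13 of 14 autosomes), with 63 of 73 deserts below 1. Beside neither it was 0.968 (SD 0.0257), with 118 of 159 below 1, and over all 263 deserts 194 were below 1. The ratios beside the lists lay farther apart than either SD, and the difference itself was not tested.

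The lists differed in length as well as in GC content. The median interval was 1.54 Mb beside transcription factor genes and 2.17 Mb beside adhesion genes, and the median GC content was 38.0% and 35.8%. Among intervals under 2 Mb the median ratio of the deserts was 1.00 beside transcription factor genes (25 deserts) and 0.966 beside adhesion genes (34 deserts). Among intervals of 2 Mb or more it was 1.01 (6 deserts) and 0.960 (39 deserts). The ranges overlapped, from 0.940 to 1.06 beside transcription factor genes and from 0.606 to 1.04 beside adhesion genes. Against the median genic window, the tiles beside transcription factor genes had a median ratio of 0.980 (SD 0.0123), below 1 on 7 of 7 autosomes, and those beside adhesion genes 0.953 (SD 0.0365), so on this scale the lists lay closer together than the larger SD. Beside transcription factor genes the density thus reached the genic mean and not the genic median.

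The desert beside SOX2, a transcription factor that pluripotent cells need, had the highest ratio of the 31. It lies at chr3:181764437-182743502 between SOX2 and ATP11B, the gene of a phospholipid flippase, and held 4904 positions per Mb, 1.06 of the GC-matched mean. Its 9 tiles ranged from 4642 to 5157 per Mb with a median of 4881, so none was sparse. Its mean score was 15.4, against 14.9 for genic windows of the same GC content, and its median neighbour distance was 180 bp. Next in the order came the desert between TBX3, a T-box factor of limb and heart, and MED13L, with a ratio of 1.04 and 5190 positions per Mb. The desert between FANCL and BCL11A, a zinc finger repressor, followed with 1.04 and 4781 per Mb. Near the low end stood the desert between DCDC2C and SOX11 with 0.946 and 4399 per Mb. On its other side, SOX11 flanked a desert with 1.01 and 4760 per Mb, so the density ratios beside 1 gene differed. The mean score was below the genic level on both sides of SOX11, at 0.932 and 0.952 of it.

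The longest desert beside a transcription factor gene ran from ZEB2, a repressor of E-cadherin in mesenchymal cells, to ACVR2A, an activin receptor. Its interval measured 3.32 Mb, and chr2:144571058-147794516 held 4397 positions per Mb, a ratio of 1.02, with tiles from 3752 to 5063. The longest beside an adhesion gene, and the longest without satellite, ran from PCDH7, a protocadherin, to ARAP2 over 4.801 Mb. Its trimmed part at chr4:31196806-35898220 held 3800 per Mb, a ratio of 0.929, with tiles from 3269 to 4279. The GC contents of these deserts were 36.4% and 34.7%.

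The densest deserts were short and rich in GC. The densest lay between RPS24, a ribosomal protein gene, and ZMIZ1, a transcriptional coactivator, at chr10:78106814-79018965, with 5544 positions per Mb and a ratio of 1.07 at 47.3% GC. The desert between CRYBA4, a lens crystallin gene, and MN1 at chr22:26680670-27698276 held 5466 per Mb, a ratio of 1.07. The desert between CD83, a surface protein of immune cells, and JARID2, a partner of Polycomb repressive complex 2, at chr6:14186919-15196068 held 5346 per Mb, a ratio of 1.07. Tiles in these 3 deserts never fell below 5159 per Mb, and the median neighbour distance was 170 bp in each.

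Among the deserts without satellite, the 3 with the lowest density were named after their values were seen. Between NUPR2 and ZNF479 at chr7:56166418-57067675 there were 2228 positions per Mb, with tiles from 130 to 4294 and an empty stretch of 56640 bp. Between CDH18 and CDH12, a pair of cadherin genes, chr5:20625874-21700672 held 2565 per Mb, with tiles from 782 to 4289 and an empty stretch of 21300 bp. Both were thus partly empty. Between NCAM2, a neural adhesion molecule, and MRPL39, chr21:21593330-25535655 held 3372 per Mb, a ratio of 0.807, and no stretch without a position exceeded 3140 bp. Its tiles ranged from 2869 to 4669 with a median of 3255, and its mean score was 11.6, the lowest of the 263 deserts. Of the 263 deserts, 22 had an empty stretch of over 10 kb, and without such tiles and windows the ratio was 0.961.

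Tiles with and without non-coding genes differed by less than the spread. The deserts held a median of 6 annotated genes of long non-coding RNAs, and 3 held none. Tiles that overlap such a gene had a ratio of 0.970 (SD 0.0265), and tiles that overlap no annotated gene of any kind had 0.963 (SD 0.0176).

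**Figure D2:**
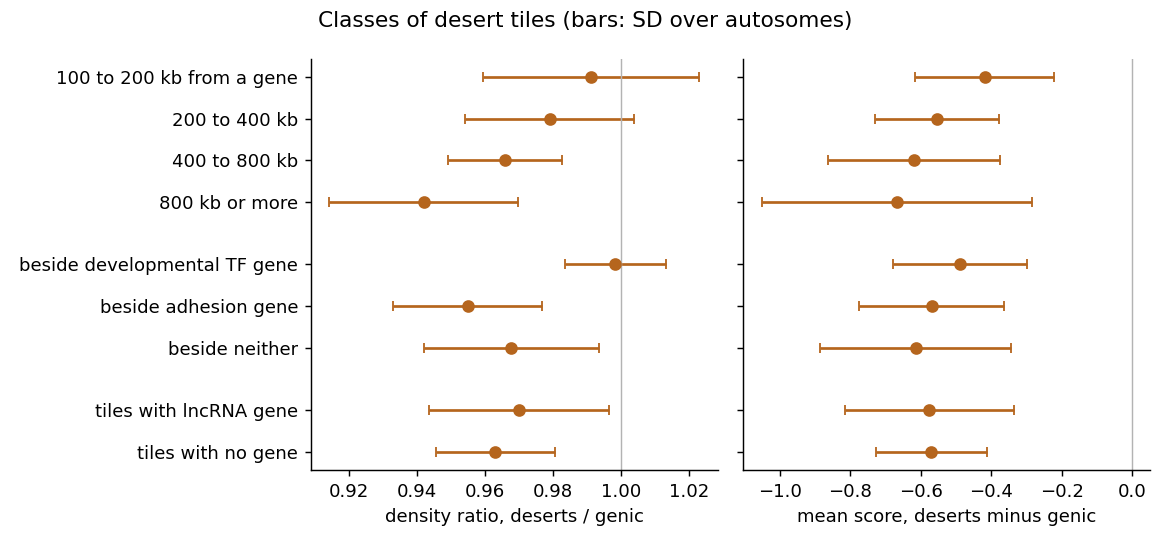
The left panel shows the density ratio of desert tiles to GC-matched genic windows and the right panel the difference in mean score, for deserts without satellite. Points are the value over all tiles of a class, bars are the SD over autosomes, TF stands for transcription factor and lncRNA for long non-coding RNA. The ratio goes from 0.991 at 100 to 200 kb from a gene to 0.942 at 800 kb or more, and the score difference is below 0 in every class shown.

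The scores of the positions were lower in the deserts. The score is a height per position in multiples of a step of 1.23, whose scale is not given in the sources used here. In the deserts without satellite the mean score was 13.44 (SD 0.931), against 14.02 (SD 0.959) in GC-matched genic windows, a difference of -0.580. The SD of this difference over autosomes was 0.219, and the deserts were lower on 21 of 21 autosomes, with differences from -1.16 on chromosome 7 to -0.377 on chromosome 6. Over all 273 deserts the difference was -0.697, again with 21 of 21 lower. The median was 12.3 and the upper quartile 17.3 in both, and the lower quartile was 8.64 against 9.87. The difference was larger than the spread between autosomes, although it amounted to less than 1 step.

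The score was lower in the single deserts as well. Of the 263 deserts, 244 had a mean score below that of genic windows of their GC content, and 87.6% of the tiles were below it, where the background share of genic windows was 50.1%. Of the 263, 193 were below 1 in both density and score and 18 above 1 in both, and Spearman's rho between the ratios was 0.576. Beside transcription factor genes the score was lower too, with a difference of -0.489 (SD 0.191) on 7 of 7 autosomes and in 27 of 31 deserts. Beside adhesion genes the difference was -0.569 (SD 0.205), in 69 of 73 deserts. With the distance to genes it went from -0.418 (SD 0.197) at 100 to 200 kb to -0.668 (SD 0.383) at 800 kb or more, a change within the larger SD.

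**Figure D3:**
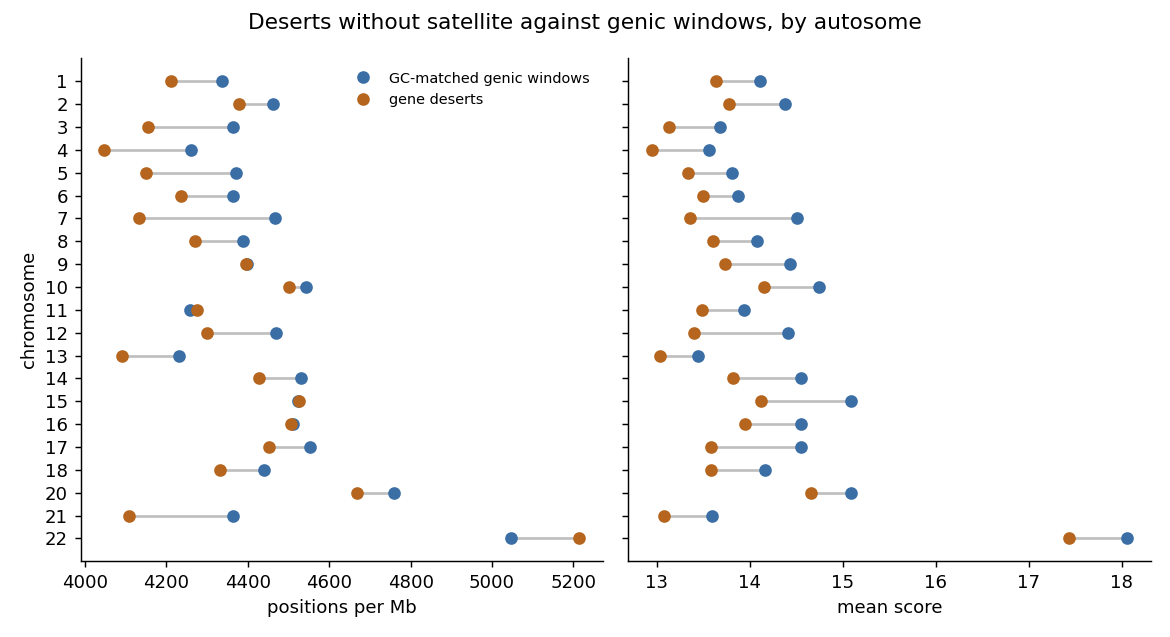
The left panel shows positions per Mb and the right panel the mean score, for each autosome with at least 20 GC-matched tiles. Points are deserts without satellite and GC-matched genic windows of the same autosome. The desert points lie to the left of the genic points on 18 of 21 autosomes for density and on 21 of 21 for score.

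The strongest positions were the ones the deserts lacked most. Positions of 5 to 8 steps (scores 6.17 to 9.87) made up 39.0% of the positions in deserts and 36.1% of those in GC-matched genic windows, a ratio of 1.08. The ratio of the shares fell to 0.855 at 17 to 24 steps, to 0.690 at 25 to 40 steps (1.49% against 2.17%), and to 0.404 at 41 steps or more. The last class held 219 positions in deserts, with a mean of 1.92 CpG dinucleotides in the DNA of 1 nucleosome core around the midpoint, against 4.01 in the genic windows. The score classes thus departed from each other step by step toward the high end.

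The scores differed also at equal GC content of the position itself. In classes of 5 percentage points of the GC content of that core DNA, the desert positions had the lower mean score in all 9 classes between 20% and 65%. The difference was -0.155 at 20% to 25%, -0.631 at 35% to 40%, and -1.18 at 60% to 65%. Across GC classes of the tiles, from 33% to 47%, it was below 0 in all 14, between -0.311 and -1.16, while the density ratio went from 0.941 at 33% to 34% to 0.994 at 40% to 41% and 0.986 at 46% to 47%, and was above 1 at 42% to 43% (1.01) and at 45% to 46% (1.05). The density ratio was thus lowest in the GC-poor tiles, while the score was lower in every class.

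The midpoints were richer in GC than their surroundings. In deserts without satellite the GC content was 39.5% at the midpoints and 37.7% at 150 bp from them, a gain of 1.78 percentage points. In GC-matched genic windows the gain was 1.68, and the difference of 0.0985 was within the SD over autosomes, 0.112, with 15 of 21 autosomes higher. The GC content itself was higher in these deserts, by 0.278 points at the midpoints (SD 0.112, 21 of 21 autosomes). At 150 bp it was higher by 0.179 points (SD 0.0992, 20 of 21), so both exceeded the spread. Over all deserts they were 0.160 (SD 0.297) and 0.0486 (SD 0.319), within it.

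Neighbouring positions lay slightly farther apart in the deserts. The median distance between neighbouring midpoints was 190 bp in both. The quartiles were 140 and 270 bp in deserts without satellite and 140 and 260 bp in genic windows. Medians of single autosomes took stepped values such as 180, 185 and 190 bp, so equal medians are equal only within such steps. By autosome, the median was higher in deserts on 8 of 21 and lower on 0. The mean of the distances up to 1000 bp was 229.7 bp against 222.8 bp, a difference of 6.96 bp, higher on 20 of 21 autosomes (SD 3.08). Distances over 500 bp made up 5.83% in deserts and 4.68% in genic windows, and distances over 1000 bp 0.587% and 0.397%. Short distances of 100 to under 120 bp, at which the 140-bp intervals of neighbours overlap, made up 12.2% and 12.9%, lower on 20 of 21 autosomes. Distances of 160 to 220 bp, the range of a regular array, made up 32.0% and 32.4%. The deserts therefore differed in their long and short distances more than in the regular ones.

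The distances between all pairs of positions showed a regular array in the deserts. Beyond 300 bp their frequency had maxima at 380, 567, 758 and 951 bp, which were 1.16, 1.10, 1.07 and 1.05 times the mean frequency from 1000 to 2000 bp. In GC-matched genic windows the maxima lay at 383, 574, 768 and 962 bp, with heights of 1.14, 1.09, 1.05 and 1.04. The first maximum was higher in deserts by 0.0189 (SD 0.0256) and on 19 of 21 autosomes. The second was higher by 0.0108 (SD 0.0156), the third by 0.0125 (SD 0.0147) and the fourth by 0.0114 (SD 0.00807). The distance from 1 maximum to the next was 190.3 bp in deserts and 193.3 bp in genic windows, a difference of -2.96 bp with an SD of 5.64, lower on 14 of 21. The repeat length thus did not differ beyond the spread between autosomes, and neither did the heights of the first 3 maxima, while the fourth differed by more than its SD. Against genic windows wholly inside genes, the first maximum was higher by 0.0221 (SD 0.0154) and on 17 of 17 autosomes, which is more than the spread. With the satellite deserts included, this difference was 0.0233 (SD 0.0249), within the spread. Other alternatives without satellite lay on both sides of their SD. Deserts of at least 500 kb gave 0.0190 (SD 0.0175), and deserts of at least 2 Mb gave 0.0155 (SD 0.0201).

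Part of this order is already in the distances between neighbours. If each neighbour distance were drawn independently from those observed in the deserts, the first maximum would lie at 366 bp with a height of 1.05 and the third at a height of 1.01. In genic windows the same calculation gave 1.04 and 1.01. The observed maxima were higher than this in both, and the fourth was 1.05 against 1.00 in the deserts.

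**Figure D4:**
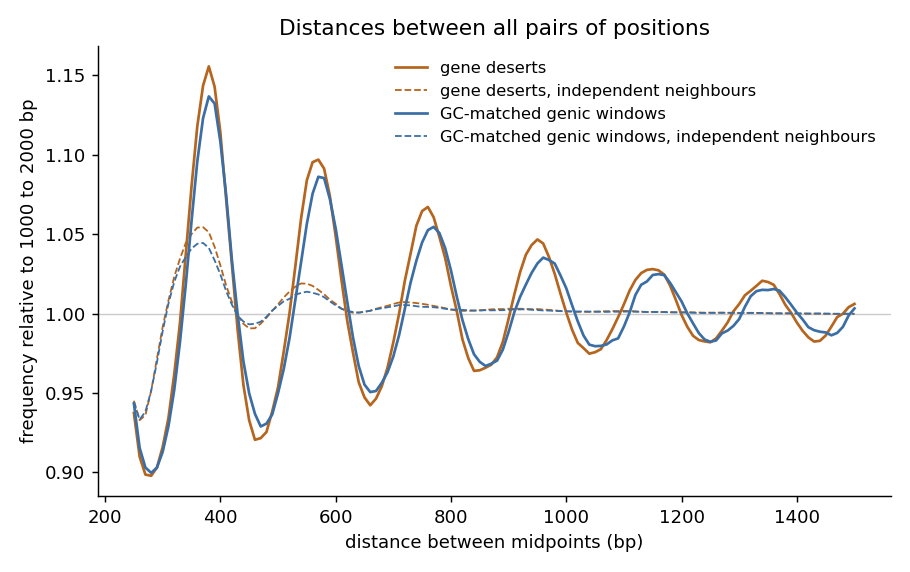
The x axis is the distance in bp between the midpoints of all pairs of positions, and the y axis is its frequency relative to the mean from 1000 to 2000 bp, for deserts without satellite and for GC-matched genic windows. Solid lines are observed and dashed lines are the frequencies if neighbour distances were independent. The solid lines have maxima of 1.16 in deserts at 380 bp and 1.14 in genic windows at 383 bp, and the dashed lines reach 1.05 and 1.04.

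Matches to the CTCF motif were sparse in the deserts. The search on both strands found 836 matches in all deserts and 799 in those without satellite, 1.77 per Mb, against 4.63 per Mb in genic windows. Of the desert tiles without satellite, 16.3% held a match, against 34.4% of the genic windows and 20.8% of these once weighted to the same GC content.

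The nucleosome array beside the matches had its maxima at the same distances. In deserts without satellite the density of positions had maxima 155, 345, 525 and 705 bp from the centre of the motif, as in genic windows. The step was 183 bp in both. These distances were read in coarse bins, so a shift of a few bp would not be seen. Their heights relative to 1000 to 1500 bp were 2.40, 1.82, 1.60 and 1.42 in deserts and 2.51, 2.01, 1.61 and 1.33 in genic windows. For these heights and for the density on the motif, the genic matches were not weighted to the GC content of the deserts. The SD over autosomes of the first height was 0.269 in deserts (9 autosomes with at least 40 matches) and 0.182 in genic windows (22 autosomes), so the first height did not differ beyond the spread. No spread was computed for the other maxima. With only positions at or above the median score of all autosomal positions, the first height was 3.75 in deserts (SD 1.03) and 3.31 in genic windows (SD 0.295), so its direction turned. On the motif itself the density was 0.874 in deserts and 0.761 in genic windows. A match to the motif is a description of the letters, and whether CTCF was bound there was not measured.

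**Figure D5:**
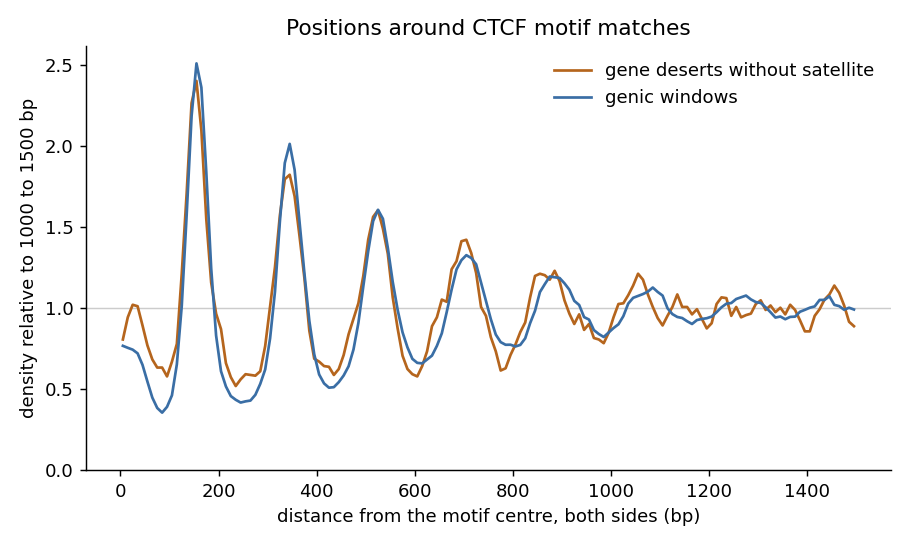
The x axis is the distance in bp from the centre of a CTCF motif match, both sides together, and the y axis is the density of positions relative to 1000 to 1500 bp. The lines are the 799 matches in deserts without satellite and the 8077 in genic windows. Both have maxima at 155, 345, 525 and 705 bp, read in coarse bins.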

How the data were processed

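The authors aligned paired-end reads of MNase-digested hiPSC DNA to GRCh38 after trimming with Trimmomatic 0.40 (from the submitters' processing notes), removed blacklisted regions, ran the nucMACC workflow and deposited 1 pooled list of 12921589 positions of 140 bp. The deposited score is a signal, never negative, whose scaling is not given in the sources used here; the study did not pursue the 50-bp runs downstream, the runs pooled and the program within the workflow that called the positions are not named, and the reads behind a score are unknown. Deserts came from GENCODE release 44 (the study used 48). The midpoint was the start plus 70. GC-matched means weighted genic windows by classes of 0.5 points with at least 5 windows. Over all autosomes together, 1 desert tile without a match was left out. GC-matched values of single autosomes, and their SDs and counts, used genic windows of that autosome only, which left out more tiles. Chromosome 21 thus kept 31 tiles without satellite, fewer than the 39 of its desert between NCAM2 and MRPL39. Pair distances were counted in bins of 10 bp and smoothed over 3. The CENP-B and CTCF motifs were searched in the hg38 reference. Satellite was detected by identity at a lag of 1 alpha-satellite unit. Sequences on chromosome 8 are not printed, and some items that the naming rule or the order of the values would give are not reported here.

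The named deserts were the 5 longest, the 3 lowest and the 3 highest in density, the longest beside each gene list and that beside SOX2; others were chosen after their values were seen. In the list of deserts beside transcription factor genes, some of the highest and lowest ratios were also named after they were seen. The members and lists were chosen with earlier results of these data known. Alternatives were other deserts, windows, matching and positions. Calculations were tested on simulated positions and used Python 3.11.15, NumPy 2.4.6, pandas 2.3.3 and matplotlib 3.10.9.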

Additional observations from a re-analysis of the deposited data

How the results depend on the processing

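Over the 9 results, the alternatives gave 149 recomputed values, of which 67 came from choices made after seeing the data. Of the 149, 134 moved by less than 1 SD over autosomes, 15 by more, and 0 changed sign. That 0 is no measure of stability for the density ratio, which is always positive. The same holds for the median score and the median neighbour distance, whose main differences were 0. The order of deserts and genic windows beside CTCF motifs did turn, as given below. The density ratio moved by less than its SD in all alternatives because the satellite deserts make that SD 0.163. It was 0.895 with all deserts and 0.967 without the satellite deserts. Without these it lay between 0.874 (no GC matching) and 0.969 (deserts of at least 500 kb). Without GC matching, the difference in median score was -2.47, in median neighbour distance 10 bp, and in GC gain 0.433 points; without satellite deserts as well they were -2.47, 10 bp and 0.434 points. With only the positions that reached the median score, the difference in median neighbour distance was 35 bp and in the height of the first maximum 0.0620, or 30 bp and 0.0569 without satellite deserts, and the first maximum beside CTCF motifs was 3.75, above the 3.31 of genic windows, where with all positions it was below them. Matching on repeats and leaving out deserts by soft-masked bases were not run, because the reference used here is not soft-masked; centromeres were found by satellite sequence. No paired analysis was possible because the libraries are pooled in 1 list. The unknown reads per score limit the precision of single positions.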
